A study of Mus musculus with 4 samples.

Results

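Transcript levels of 9 transcriptional regulators of adipocyte formation were examined in adipocytes of the line 3T3-L1, mouse fibroblasts that can be turned into fat cells in culture. The regulators were Pparg, Rxra, Cebpa, Cebpb, Cebpd, Cebpg, Stat5a, Stat5b and Ebf1. They were taken by gene name from the array annotation, which held 11 probes for them among 55681 probes for 35019 genes. Differentiated cells had been treated for 7 days with daidzein+PT, daidzein (25 uM, an isoflavone of soy), PT (100 ug/ml, an extract of pig testis) or PBS, the vehicle. The daidzein+PT cells received both agents, and all 4 groups were adipocytes of the same line, a cell line rather than tissue. RNA of each group was read on 1 single-colour (Cy3) array of 60-base probes. There were no replicates within a group, no test was made, and the number of arrays limits the precision.

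Adipocyte formation runs through a relay of these factors. C/EBPb and C/EBPd are made early after induction and activate Pparg and Cebpa, whose products then maintain each other and switch on the genes of the mature fat cell. PPARg, a nuclear receptor that is the target of the glitazone drugs, binds DNA as a heterodimer with the retinoid X receptor RXRa. C/EBPg is a partner of the other C/EBP proteins that lacks an activation domain of its own. STAT5A and STAT5B act below the growth hormone and prolactin receptors, and EBF1 is an early B-cell factor that also favours fat cell formation.

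The probes that carried the comparisons are shown by their first 30 bases, 5′ to 3′, with the position of the whole probe on mouse build mm9 as the deposited files give it. They are the probes of Pparg and Cebpa, which differed most between arrays, and of the 2 STAT5 genes, whose products are close relatives. No capitals are used.
Pparg, chr6:115440213-115440272 on the plus strand: gcaggaaagtcccacccgctgacaacgtgt
Cebpa, chr7:35906517-35906576 on the plus strand: ttttgttttggttttgctctgattcttgcc
Stat5a, chr11:100746373-100746432 on the plus strand: ctctctgaaggaagcagagggatgcttttt
Stat5b, brighter probe, chr11:100642045-100642104 on the minus strand: tgaggcagccacaaaattgtgtattttatg
Stat5b, second probe, chr11:100642187-100642246 on the minus strand: gtggaaggagatttgaagtggctatctcct
The Stat5a probe shared no run of more than 7 bases with either Stat5b probe. The files assign the Pparg probe to 2 RefSeq transcripts, and its signal does not tell them apart. An exon annotation of mm9 was not used here, and whether a probe lies in a coding exon or a UTR is not stated.

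All 11 probes were well above background on all 4 arrays, and no spot was saturated. Levels are given as the background-subtracted signal divided by the 75th percentile of all probes on that array, and probes of different genes are not compared in level. Differences are on the log2 scale of this ratio. In place of replicate error, the difference between the 2 pairs of arrays that measure 1 treatment (the interaction) was taken over all genes. Its spread corresponds to an SD of a log2 difference between 2 arrays of 0.11 for the brightest, 0.14 for the middle and 0.33 for the dimmest of 3 equal groups of genes (18346 genes in all). Pparg, Cebpb, Cebpd, Stat5a, Stat5b and Ebf1 lay in the brightest group, Cebpa and Cebpg in the middle group, and Rxra in the dimmest. Real non-additive responses also enter this spread. Array positions are not in the labels; read from the position codes with which the scanner output was named, PT and daidzein+PT lay in slide row 2 and daidzein and PBS in row 1. On that reading PT and slide row cannot be told apart. A constant row effect would cancel from the interaction, so the SD values above would not include it.

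Cebpa and Pparg had their highest signal with daidzein+PT, followed by daidzein, PT and PBS. The early factors Cebpb and Cebpd, and also Rxra, Stat5b and Ebf1, differed from PBS by at most 0.19 on the log2 scale with each treatment, read from the brighter probe. Cebpg and Stat5a had higher signal on both daidzein arrays, by 0.33 to 0.58 over PBS.

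**Figure D1:**
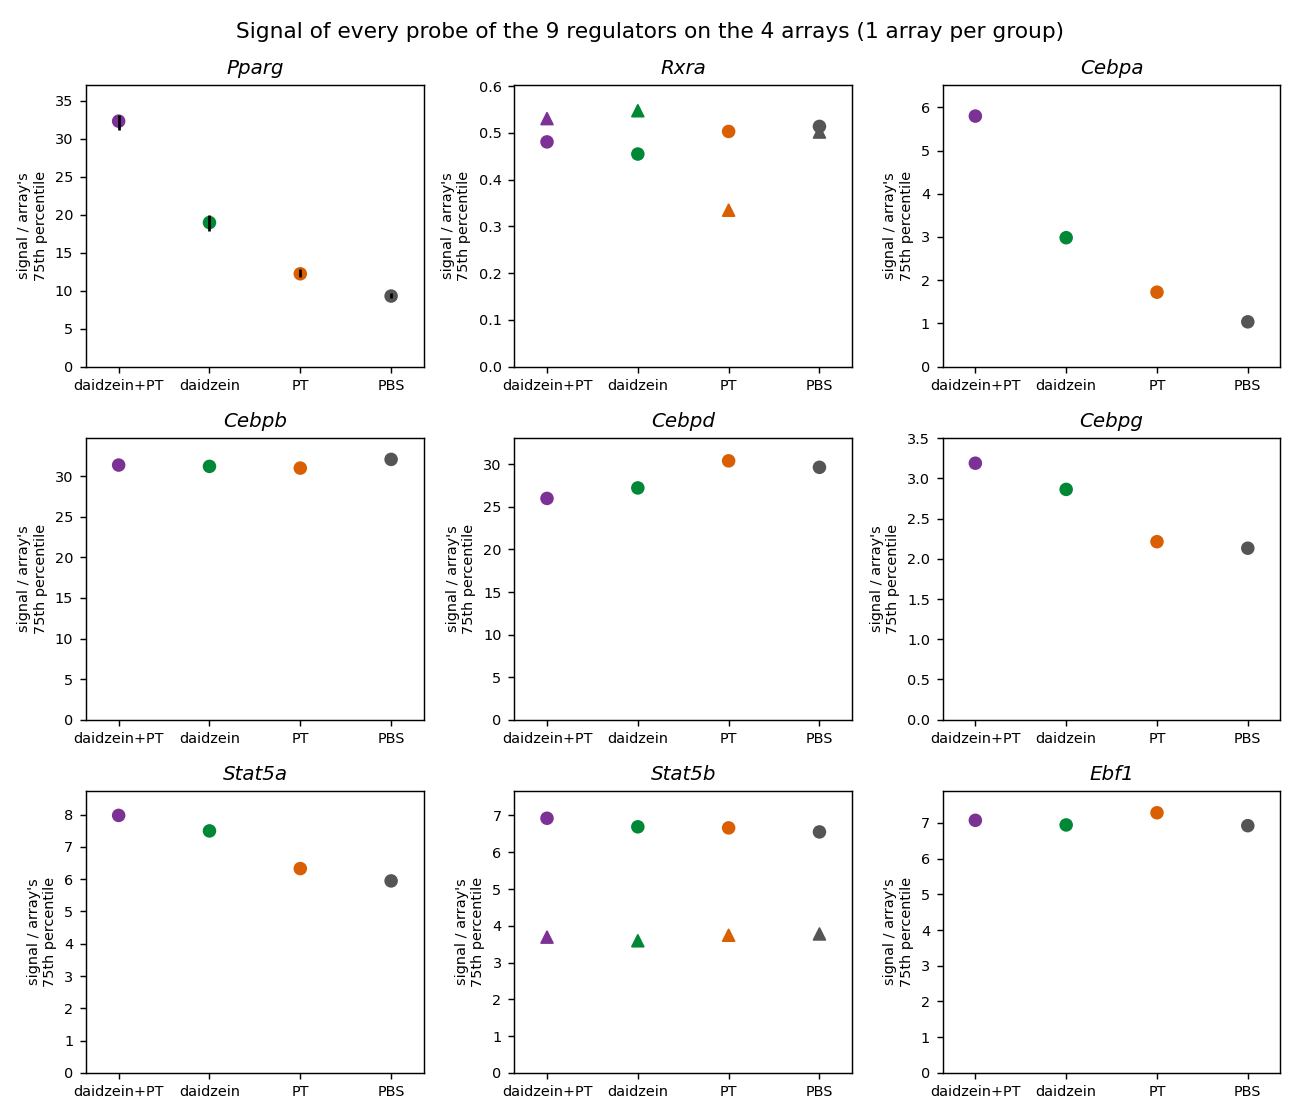
Signal of every probe of the 9 regulators, divided by the array's 75th percentile (y axis, linear from 0), on the daidzein+PT, daidzein, PT and PBS arrays (x axis, 1 array each). Circles are the brighter or only probe of a gene, triangles the second probe of Rxra and Stat5b, and black bars on Pparg the range of its replicate spots. Pparg and Cebpa step down from daidzein+PT to PBS, while Cebpb, Stat5b and Ebf1 are nearly level.

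Pparg was measured on 10 spots of its probe per array, of which 9 were kept on the PBS array. Its median spot was 32.2 times the 75th percentile with daidzein+PT (spots from 31.1 to 33.1), 19.0 with daidzein (17.9 to 19.9), 12.2 with PT (11.8 to 12.9) and 9.30 with PBS (8.99 to 9.70). No spot of one array overlapped the spots of another, and the SD among spots within an array was between 0.03 and 0.04 on the log2 scale. These spots share 1 RNA sample per array and show the technical error of the reading, not the spread between cultures. The log2 difference from PBS was 1.80 with daidzein+PT (3.48-fold), 1.03 with daidzein (2.04-fold) and 0.40 with PT (1.32-fold). Daidzein+PT was higher than PT by 1.40 and higher than daidzein by 0.77.

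Cebpa had the widest range of the 9 genes. Its signal was 5.80 times the 75th percentile with daidzein+PT, 2.98 with daidzein, 1.72 with PT and 1.04 with PBS. The log2 difference from PBS was 2.49 with daidzein+PT (5.60-fold), 1.53 with daidzein (2.88-fold) and 0.73 with PT (1.66-fold), against an SD of 0.14. It was 1.75 for daidzein+PT over PT and 0.96 for daidzein+PT over daidzein. In every comparison with PBS the difference of Cebpa exceeded that of Pparg, by 0.69 with daidzein+PT, 0.50 with daidzein and 0.34 with PT. Cebpa has 1 spot per array, so no spot range can be given for it.

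Placed among all genes, Cebpa ranked 90th from the highest of 18554 genes for daidzein+PT over PBS, 99th of 19006 for daidzein over PBS and 332nd of 18901 for PT over PBS. Pparg ranked 185th, 198th and 1029th in the same comparisons. With each gene read by its brighter or only probe, both were at least 2-fold higher in daidzein+PT over PBS, daidzein over PBS and daidzein+PT over PT, the 2 of 9 regulators that were. Over all genes the share at least 2-fold higher was 2.52% for daidzein+PT over PBS, 1.1% for daidzein over PBS and 2.09% for daidzein+PT over PT. In PT over PBS and in daidzein+PT over daidzein 0 of the 9 reached 2-fold, where 0.873% and 1.09% of all genes did. No regulator was at least 2-fold lower in any of the 5 comparisons, where the share of all genes was 0.544% for daidzein+PT over PBS, 0.363% for daidzein over PBS, 0.0635% for PT over PBS, 0.844% for daidzein+PT over PT and 0.102% for daidzein+PT over daidzein. At a smaller threshold of 1.5-fold, Pparg and Cebpa were the 2 regulators higher in daidzein+PT over PBS (6.07% of all genes), daidzein over PBS (3.11%), daidzein+PT over PT (5.06%) and daidzein+PT over daidzein (3.26%). Cebpa alone passed it in PT over PBS (2.65%). None of the 9 was 1.5-fold lower by that probe (the second Rxra probe passed 1.5-fold lower for PT over PBS and 1.5-fold higher for daidzein+PT over PT), where 2.95%, 2.42%, 3.59%, 0.852% and 0.651% of all genes were in these 5 comparisons, taken in the same order. The median of the 9 regulators for daidzein+PT over PBS was 0.08, against -0.03 for all genes, but the list was split. Beyond 2 SD were 4 of the 9: of all genes 0.480% were higher than Cebpa, 0.992% than Pparg, 6.13% than Cebpg and 9.52% than Stat5a. The remaining regulators had between 33.3% (Stat5b) and 76.8% (Cebpd) of all genes above them.

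**Figure D2:**
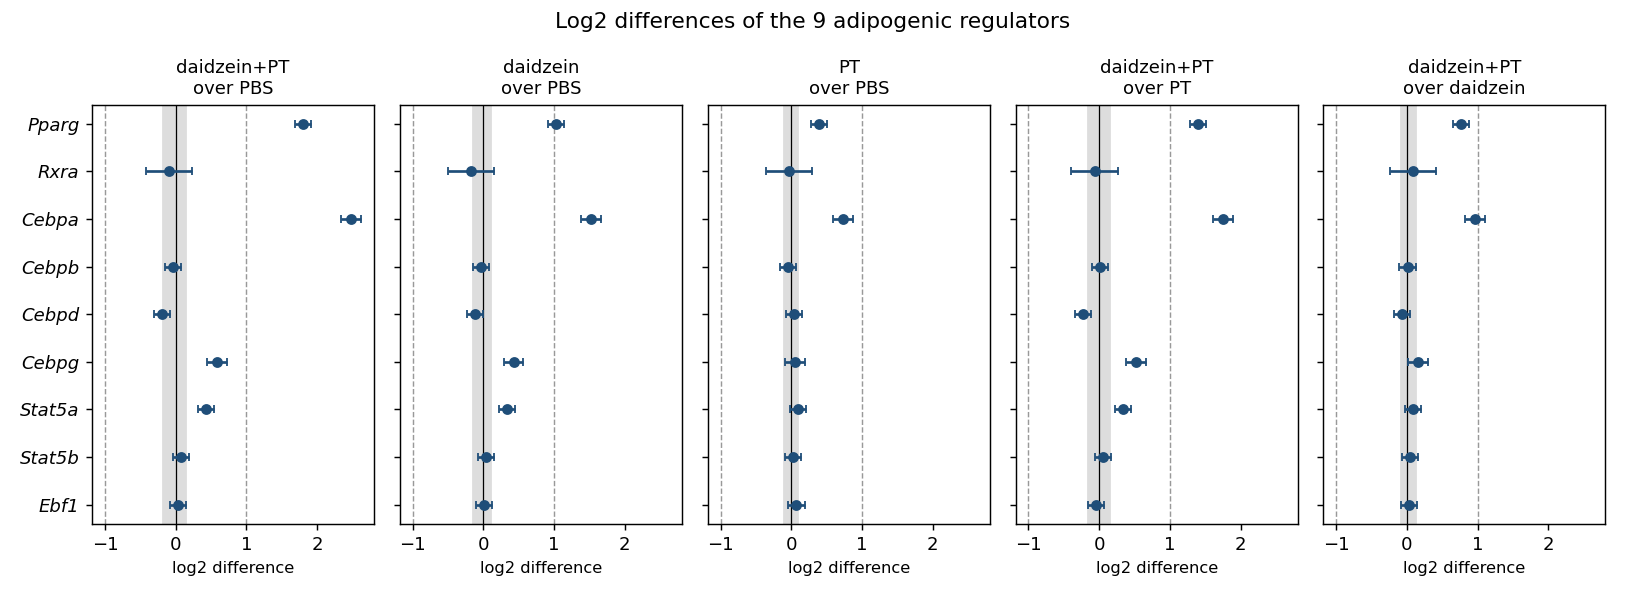
Log2 difference (x axis) of each of the 9 regulators (rows) in the 5 comparisons, read from the brighter probe; bars are the SD of a difference of 2 arrays for genes of like brightness. Grey bands hold the middle 50% of all genes and dashed lines mark 2-fold; Pparg and Cebpa lie to the right of the band in every panel, and Cebpg and Stat5a (higher) and Cebpd (lower) are beyond 1 SD in the 3 panels with daidzein in the first array only, as is Cebpg for daidzein+PT over daidzein.

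Rxra, the DNA-binding partner of PPARg, was dim and its 2 probes did not agree. The brighter probe, at chr2:27618781-27618839 (mm9), read 0.480 with daidzein+PT, 0.455 with daidzein, 0.503 with PT and 0.514 with PBS. Its log2 differences from PBS were -0.10, -0.18 and -0.03, all within the SD of 0.33. The second probe, at chr2:27615316-27615375, read 0.530 with daidzein+PT, 0.547 with daidzein, 0.334 with PT and 0.502 with PBS. On it the log2 difference of PT over PBS was -0.58 (0.667-fold), and daidzein+PT was higher than PT by 0.67 (1.59-fold). These differences rested on the low reading of the PT array and were not seen on the other probe.

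The early C/EBP factors did not share the pattern of Cebpa. Cebpb was among the most even of the 9 genes, with 31.4 on the daidzein+PT array, 31.2 on the daidzein array, 31.0 on the PT array and 32.1 on the PBS array. Its 5 log2 differences ran from -0.05 to 0.02, less than the SD of 0.11; centred on spike-in probes, PT over PBS was 0.10. Cebpd read 26.0 with daidzein+PT, 27.2 with daidzein, 30.4 with PT and 29.7 with PBS. It was the lowest of the 9 genes in daidzein+PT over PBS, with a log2 difference of -0.19, and it was -0.12 in daidzein over PBS and -0.23 in daidzein+PT over PT. In the last comparison 17.6% of all genes were lower still.

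Cebpg was higher on the arrays with daidzein. Its signal was 3.19 with daidzein+PT, 2.86 with daidzein, 2.21 with PT and 2.13 with PBS. The daidzein difference was 0.43 with PT absent and 0.53 with PT present, both beyond the SD of 0.14, and it ranked 1014th of 19006 and 1117th of 18607 genes from the highest. The PT difference was 0.05 with daidzein absent and 0.16 with daidzein present. Cebpg and Cebpa are neighbours on chromosome 7, with probes 71 kb apart on opposite strands, and for daidzein+PT over PBS the difference of Cebpa exceeded that of Cebpg by 1.91.

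Stat5a and Stat5b, which also lie side by side (probes 104 kb apart on chromosome 11), had different values. Stat5a read 7.98 with daidzein+PT, 7.49 with daidzein, 6.33 with PT and 5.95 with PBS. Its daidzein difference was 0.33 in both pairs and its PT difference 0.09 in both pairs, which gave an interaction of 0.00. The brighter Stat5b probe read 6.92 with daidzein+PT, 6.69 with daidzein, 6.66 with PT and 6.55 with PBS, and the second probe 3.69, 3.59, 3.74 and 3.78. Both Stat5b probes stayed within 0.08 of PBS on the log2 scale. The gap between Stat5a and Stat5b was 0.30 for daidzein over PBS and 0.28 for daidzein+PT over PT. Whether the genes differ was not tested. Ebf1 read 7.07 with daidzein+PT, 6.94 with daidzein, 7.28 with PT and 6.92 with PBS, and no treated array differed from PBS by more than 0.07.

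Each treatment was measured in 2 pairs of arrays that share no array, which shows each difference with and without the other agent. The interaction is a difference of 2 such differences, and its SD over genes was 0.16 in the brightest, 0.20 in the middle and 0.46 in the dimmest group. The PT difference of Pparg was 0.77 with daidzein present and 0.40 with daidzein absent, an interaction of 0.37 or 2.33 times its SD, and 6.82% of all genes had a more positive interaction. For Cebpa the values were 0.96 and 0.73, an interaction of 0.23 or 1.13 times its SD. The other 7 genes, read by their brighter or only probes, had interactions from -0.10 (Cebpd) to 0.11 (Rxra). The second Rxra probe gave 0.54, above the value of Pparg, and the mean over both Rxra probes gave 0.33. By the brighter probes 0 of the 9 reached an interaction of 2-fold, against 1.34% of all genes. The SD is that of all genes of like brightness, not of adipocyte genes alone. In the brightest group, genes listed below as targets of PPARg and RXR had interactions from -0.72 (Cidec) to 0.41 (Fabp5). The interaction sets the PBS and daidzein+PT arrays against the daidzein and PT arrays and was not tested.

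**Figure D3:**
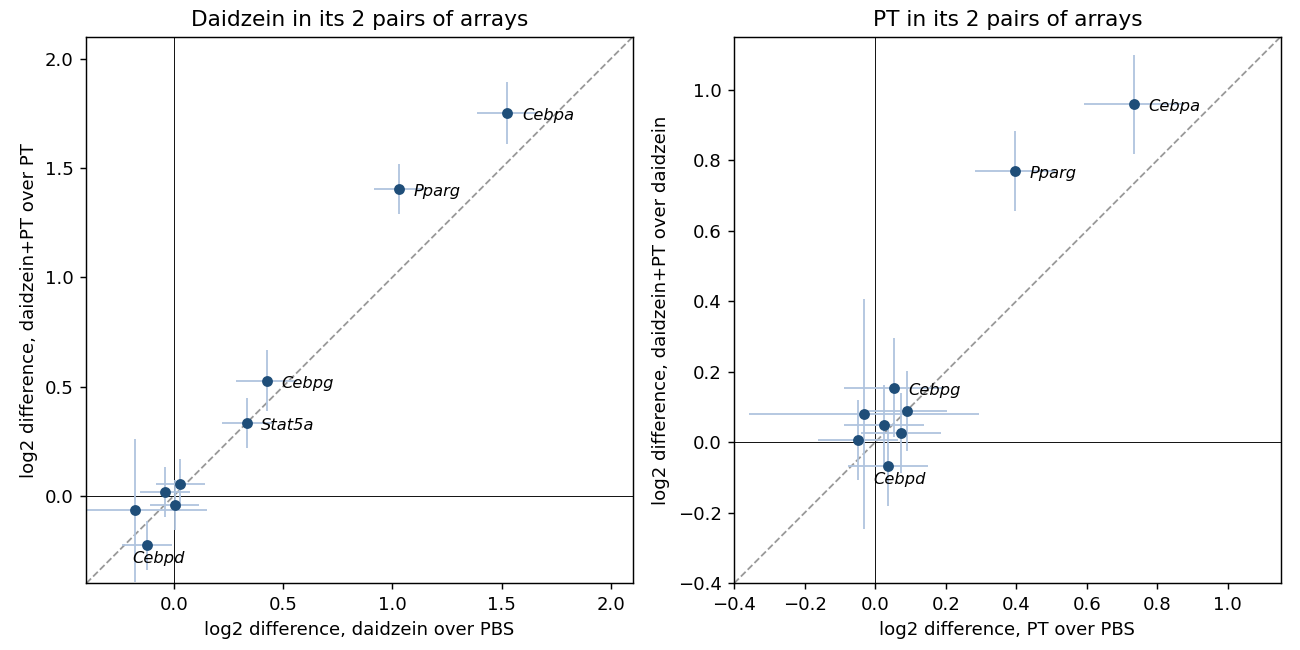
Log2 difference of the 9 regulators for 1 treatment with the other agent absent (x axis) and present (y axis), for daidzein on the left and PT on the right. Bars are the SD of a difference of 2 arrays and the dashed line marks equal differences. The height above that line is the interaction, which is the same in both panels by construction. Pparg lies farthest above the line, followed by Cebpa, and in the PT panel the genes other than Pparg and Cebpa cluster around 0.

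Genes whose 4 readings most resembled those of Cebpa and Pparg were found by the root mean square distance of log2 signal over the 4 arrays, each gene centred on its own mean, among 9558 named genes outside the dimmest group. For Cebpa they were Hsd11b1, the enzyme that regenerates active glucocorticoid, with a distance of 0.03, the prolactin receptor Prlr (0.03), the lipocalin Lcn2 (0.04), the amine oxidase Aoc3 (0.07) and the mitochondrial carbonic anhydrase Car5b (0.07). For Pparg they were the succinic semialdehyde dehydrogenase Aldh5a1 (0.03), the integrin subunit Itga6 (0.04), the fat storage-inducing transmembrane protein Fitm2 (0.04), the triglyceride-forming acyltransferase Dgat1 (0.05) and Gnpat, an enzyme of ether lipid synthesis (0.05). For daidzein+PT over PBS, Hsd11b1 had a log2 difference of 2.53 and Dgat1 one of 1.70. Probes disagreed for Prlr (0.92 and 2.52), Aoc3 (0.68 and 2.43), Itga6 (-0.26 and 1.70) and, less so, Fitm2 (1.24 and 1.70). In each the brighter probe gave the higher value. With 4 arrays many genes can share an order, and the distance is a description.

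Genes that PPARg and RXR are known to activate in adipocytes were mostly higher in the comparisons with PBS. Of 25 listed targets, 23 were measured in daidzein+PT over PBS and 21 were above 0, with a median log2 difference of 2.93. Of these, 20 passed 2-fold upward, against 2.52% of all genes. Angptl4 (-0.31) and Pdk4 (-0.57) were below 0. The median was 2.16 for daidzein over PBS (16 of 23 at least 2-fold higher, against 1.1% of all genes) and 0.94 for PT over PBS (11 of 23, against 0.873%). For daidzein+PT over daidzein it was 0.70 (4 of 24, against 1.09%), with Pparg at 0.77 and Cebpa at 0.96. Members with the largest differences for daidzein+PT over PBS were the lipase Mgll (4.17), the fatty acid transporter Cd36 (4.07), the insulin-responsive glucose transporter Slc2a4 (4.06) and the glycerol-phosphate dehydrogenase Gpd1 (3.83). Mgll lay in the dimmest group, with a signal of 0.157 on the PBS array. The median of all genes lay between -0.03 and -0.02 in the comparisons with PBS and was 0.01 for daidzein+PT over daidzein. The interaction median of the targets was -0.17, with 14 of 23 below 0, whereas Pparg lay at 0.37 and the median of all genes at 0.04.

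The receptor's relatives and coregulators were mostly level. Of 18 measured genes (Prdm16 was not well above background), 9 were above 0 for daidzein+PT over PBS, with a median of -0.03. The 2 genes at least 2-fold higher, against 2.52% of all genes, were the coactivator Ppargc1b (1.48, also 1.24 for daidzein over PBS and 0.13 for PT over PBS) and the corepressor Nrip1, known as RIP140 (1.16, with 0.72 for daidzein and 0.21 for PT). Ppargc1b was dim, at 0.0735 with PBS and 0.0803 with PT, in the group with an SD of 0.33. Ncoa1 had a difference of 0.48 and Ncoa3, another steroid receptor coactivator, one of -0.34. The other RXR genes, Rxrb (0.14) and Rxrg (-0.05), and the other PPAR genes, Ppara (-0.18) and Ppard (0.20), were well within 2-fold. Among other C/EBP and bZIP partners 8 of 12 were measured. For daidzein+PT over PBS 0 reached 2-fold in either direction, where 2.52% of all genes were higher and 0.544% lower. The named genes were Atf3 (0.65, in the dimmest group), Jun (-0.55), Cebpz (-0.20) and Ddit3 (-0.13), whose product CHOP blocks C/EBP dimers.

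Other activators of adipogenesis were divided. For daidzein+PT over PBS 11 of 14 were above 0, with a median of 0.15, and 3 passed 2-fold. Of these, 2 were higher and 1 lower, where 2.52% and 0.544% of all genes were. The Kruppel-like factor Klf15 (2.22) and the liver X receptor gene Nr1h3 (2.16) were the higher ones, the sterol regulator Srebf1 had a difference of 0.81, and Klf5, which acts early beside C/EBPb in 3T3-L1 cells, was lower (-1.03). Klf5 read 0.951 with daidzein+PT, 1.42 with daidzein, 1.78 with PT and 1.94 with PBS, the reverse of the order of Pparg. Of 18 genes listed as inhibitors, 12 were below 0 for daidzein+PT over PBS, with a median of -0.06. Id2 was the 1 gene at least 2-fold higher and 0 were 2-fold lower, where 2.52% and 0.544% of all genes were. Whether each listed gene inhibits in these cells was not tested. The largest differences were those of the helix-loop-helix genes Id2 (1.43) and Id3 (0.87), of Rora (0.79) and of Gata2 (-0.69), which represses Pparg. Klf15, Srebf1, Rora and Gata2 lay in the dimmest group, where the SD was 0.33.

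In the JAK-STAT5 pathway 8 of 18 genes were above 0 for daidzein+PT over PBS, with a median of -0.07. Prlr, whose product signals to STAT5, was the 1 gene at least 2-fold higher (2.52 on the brighter probe, 0.92 on the other), where 2.52% of all genes were. Bcl6 had a difference of 0.71. The interferon-pathway factor Stat2 had -0.75 and the inhibitor Socs1 -0.65.

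**Figure D4:**
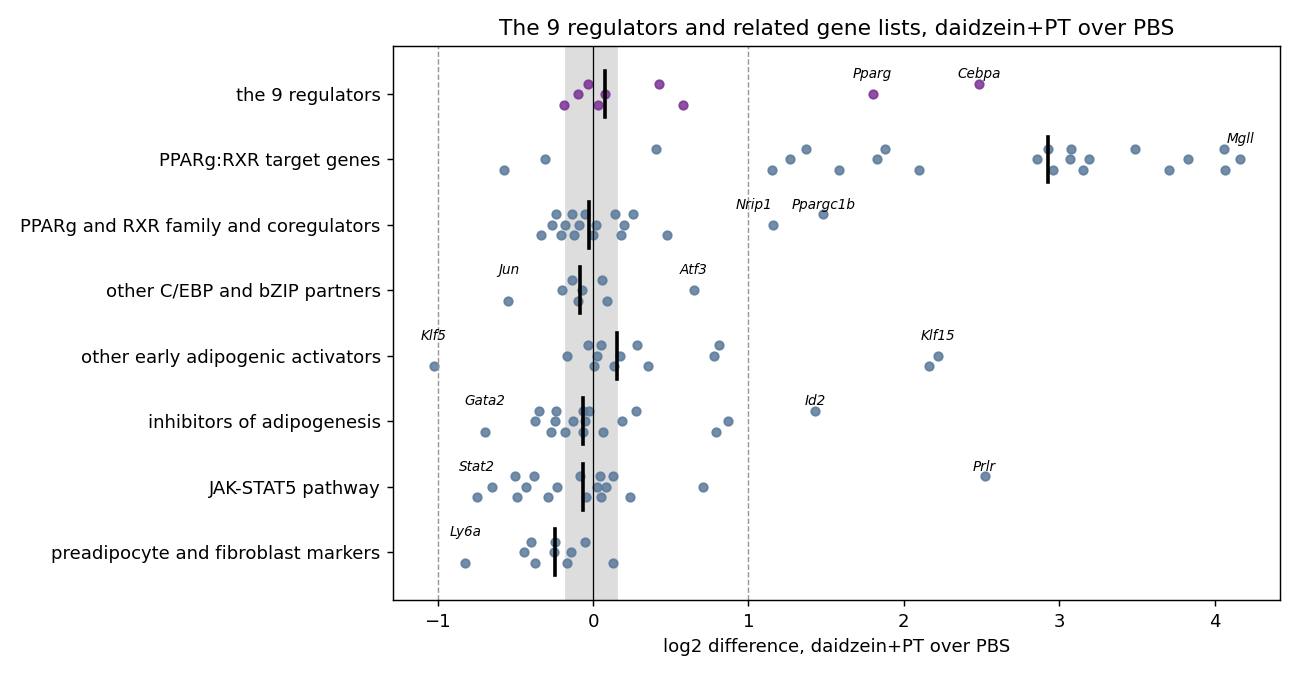
Log2 difference for daidzein+PT over PBS (x axis) of each measured gene (points) in the 9 regulators and in 7 related lists (rows); black lines are list medians, the grey band holds the middle 50% of all genes and dashed lines mark 2-fold. The PPARg:RXR targets have a median of 2.93, while the other lists have medians between -0.25 and 0.15.

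Markers of mature adipocytes, all of which but Cfd are also on the target list, moved with these results. All 8 adipocyte markers (Adipoq, Fabp4, Plin1, Cidec, Lpl, Cfd, Slc2a4 and Cd36) were well above background on every array. Their summed level, in units of the 75th percentile, was 1312 with daidzein+PT, 801 with daidzein, 340 with PT and 176 with PBS, the same order as Pparg and Cebpa. The 10 preadipocyte and fibroblast markers were also all well above background, with sums of 1369.8, 1320.4, 1540.03 and 1560.4 on the same arrays. The largest differences for daidzein+PT over PBS among them were -0.82 for Ly6a, -0.45 for Thy1, -0.40 for Pdgfra and -0.37 for Dlk1, whose second probe gave -0.70. In these bulk samples more adipocytes and more RNA per adipocyte cannot be told apart, and the part of cell composition in the levels of Pparg and Cebpa was not tested. Of 7 macrophage markers 5 were well above background on each array but PT, where 4 were. Cd68, Csf1r, Itgam and Cd14 passed on all 4 arrays, and Adgre1 and Ptprc on none. The summed level lay between 34.7 and 37.5, of which Itgam alone made up 30.7 to 33.8. Of 6 muscle markers 1 (Acta1) was well above background, with sums between 0.818 and 0.960. Of 7 testis markers at most 3 were, with sums between 6.42 and 7.47, of which Cyp17a1 alone made up 6.18 to 7.29. Prm1, in the dimmest group (SD 0.33), read 0.104 with daidzein+PT, 0.0612 with daidzein, 0.0996 with PT and 0.0681 with PBS. Its PT difference was 0.77 with daidzein present and 0.55 with daidzein absent, and was not tested.

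Because Pparg and Cebpa were higher together, the bases before their transcription starts are printed from RefSeq (GRCm38.p6, plus strand, 250 bases ending at the base before the start). RefSeq lists 3 start windows for Pparg, of which the first and the most downstream are shown; the adipocyte form PPARg2 is known to be read from a downstream promoter. Capitals mark the C/EBP motif TTNNGNAA and the CCAAT box CCAAT, on either strand.
Pparg, first window, chr6:115360894-115361143: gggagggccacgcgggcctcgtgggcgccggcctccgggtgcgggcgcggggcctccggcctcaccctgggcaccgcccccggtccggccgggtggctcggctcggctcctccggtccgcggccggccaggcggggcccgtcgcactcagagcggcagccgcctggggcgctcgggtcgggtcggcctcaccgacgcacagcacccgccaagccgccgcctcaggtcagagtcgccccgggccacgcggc
Pparg, most downstream window, chr6:115421816-115422065: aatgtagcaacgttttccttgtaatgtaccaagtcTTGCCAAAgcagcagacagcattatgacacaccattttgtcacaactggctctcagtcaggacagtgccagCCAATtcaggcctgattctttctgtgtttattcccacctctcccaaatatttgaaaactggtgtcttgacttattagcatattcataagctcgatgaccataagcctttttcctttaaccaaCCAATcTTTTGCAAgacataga
Cebpa, chr7:35119043-35119292: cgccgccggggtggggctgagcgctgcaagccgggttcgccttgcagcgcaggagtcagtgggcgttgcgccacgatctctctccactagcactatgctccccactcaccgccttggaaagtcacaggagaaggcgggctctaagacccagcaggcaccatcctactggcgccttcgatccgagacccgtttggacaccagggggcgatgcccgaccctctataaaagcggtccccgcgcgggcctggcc
The most downstream Pparg window had 2 matches to TTNNGNAA, which begin 215 and 16 bases before the start, and 2 CCAAT boxes, which begin 144 and 22 bases before it and overlap neither. The first Pparg window and the Cebpa window had none of either. TTNNGNAA was present in 3 of the 14 windows of the 8 regulators listed (no window was available for Cebpd) and in 36.8% of all 32851 windows. CCAAT was present in 3 of 14 and in 33.8% of all windows. The full palindrome TTGCGCAA, which is one form of TTNNGNAA, and the PPARg:RXR repeat (DR1) were found in 0 of the 14 windows and in 0.164% and 0.338% of all windows. The Cebpa window held a TATA box (TATAAA, 12.4% of all windows) that begins 30 bases before the start. The middle Pparg window, which is not printed, held a TATA box that begins 29 bases and a CCAAT box that begins 83 bases before its start. These matches describe the letters of the windows alone. The GC content was 82.4% in the first Pparg window, 40.8% in the most downstream one and 66.4% in the Cebpa window, against a median of 52.4% over all windows.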

How the data were processed

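RNA of 3T3-L1 adipocytes treated with daidzein+PT, daidzein, PT or PBS was read, per the labels, on Agilent mouse arrays, 1 for each group. The deposited scanner files hold a linear intensity, corrected for background and spatial trend by Feature Extraction, together with raw spot and background intensities, per the file headers (version 10.7.1.1; 9.5.1.1 per the submitters' processing notes). Flags for well above background, saturation, outliers and control spots were set by the same program, per the file headers. The deposited series table holds a linear intensity that was quantile normalized, as read from its values: its sorted columns differed by at most 0.0474%. It was used as an alternative only.

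Outlier spots were left out (106 to 173 per array), as were control spots. The log2 signal of a probe's spots was averaged and the array's 75th percentile over probes was subtracted (304 for daidzein+PT, 344 for daidzein, 353 for PT, 314 for PBS). Of 59305 non-control spots, 49.7% to 51.4% were well above background. A gene was read by its brightest probe and entered a comparison when that probe was well above background on both arrays. Symbols were updated by accession from RefSeq (GRCm38.p6; 27235 of 55681 probes matched, 2838 renamed). No test was made: each group has 1 array, and a fit of both agents without their interaction, which would leave 1 residual degree of freedom, was not run. The spread of a difference was the SD of the interaction over genes divided by the square root of 2. All regulators are described. Up to 4 genes per list with the largest absolute daidzein+PT over PBS difference, and the 5 genes nearest to Pparg and to Cebpa, are named. Genes singled out beyond these (Rxrb, Rxrg, Ppara, Ppard, Prdm16, Angptl4, Pdk4, Fabp5, Csf1r, Adgre1 and Ptprc) were named after their values were seen. The members, lists and tests were chosen with earlier results of these data known. The comparison and the spread were tested on simulated data with equal noise for all probes and additive changes. Noise that differs with brightness, the filter on dim probes and non-additive responses were not simulated. Python 3.11.15 and limma 3.58.1 (normexp) were used.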

Additional observations from a re-analysis of the deposited data

How the results depend on the processing

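Alternatives were normexp background correction, quantile normalization, centring on 6 spike-in probes, the deposited series table, the mean over a gene's probes and no filter on dim probes. A 1.5-fold threshold and the second probes of Rxra and Stat5b were added after the data were seen. Under the first 6 of these the numbers of regulators at least 2-fold higher or lower, and with a 2-fold interaction, were unchanged except that 1 gene (Cebpa, 1.01) reached 2-fold for daidzein+PT over daidzein with spike-in centring. With the 1.5-fold threshold 1 regulator (Cebpa) was higher for PT over PBS and 2 (Pparg and Cebpa) for daidzein+PT over daidzein. Spike-in centring moved the median of all genes for PT over PBS by 0.15. For daidzein+PT over PBS the alternatives gave 1.74 to 1.86 for Pparg and 2.22 to 2.54 for Cebpa. For PT over PBS they gave 0.40 to 0.54 for Pparg and 0.61 to 0.88 for Cebpa, and the interaction of Pparg was 0.28 to 0.37. That centring also moved the other regulators but Rxra by over 1 SD for PT over PBS, to between 0.10 (Cebpb) and 0.24 (Stat5a). With the mean over probes Rxra was at -0.31 for PT over PBS. Counts of all genes at least 2-fold higher varied with the background correction and the filter: with normexp they were 288 in place of 468 for daidzein+PT over PBS, 116 in place of 209 for daidzein over PBS, 42 in place of 165 for PT over PBS, 65 in place of 203 for daidzein+PT over daidzein and 233 in place of 389 for daidzein+PT over PT, and with no filter they were 2684, 1800, 2210, 2091 and 2057. Genes at least 2-fold lower numbered 36, 16, 1, 2 and 41 with normexp, in place of 101, 69, 12, 19 and 157, and 1048, 1162, 889, 1096 and 1788 with no filter. The 12 lower genes for PT over PBS were also 30 with quantile normalization, 29 in the deposited table, 22 with the mean over probes and 6 with spike-in centring. The cause was not tested.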
